A study of Homo sapiens with 40 samples.

Results

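The effect of 0.1% DMSO on the transcriptome of wild-type (WT) HEK293A cells was measured by comparing the 4 RNA sequencing libraries of cells given the solvent with the 4 libraries of cells left without treatment. These 8 libraries, chosen by their sample titles, are part of a series of 40 libraries in 10 conditions. HEK293A is an adherent line derived from human embryonic kidney, and the series asks how WT cells and a PARP1-knockout (PARP1-KO) line respond to Tpc (topotecan), a poison of DNA topoisomerase TOP1, and to OL9-119, an inhibitor of the repair enzyme TDP1. OL9-119 does not dissolve in water, which is why a solvent control was made.

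DMSO is a small polar solvent that mixes with water, carries poorly soluble compounds into the culture medium and crosses cell membranes. In cells it can be reduced or oxidized by enzymes that act on methionine and sulfoxides, and at high concentration it disturbs membranes and protein folding, raises osmolarity and can drive some cell types to differentiate. A solvent control shows how much of the response to a dissolved compound could come from the solvent.

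The DMSO group was WT cells exposed for 5 to 5.5 h, and the untreated group was WT cells that received nothing. Whether untreated wells were opened or given medium at that time is not given in the sources used here, so the solvent and the act of adding it cannot be told apart. Values of other groups are set beside these where needed. WT cells received 100 nM Tpc with 0.1% DMSO, or 5 μM OL9-119 dissolved in 0.1% DMSO, for the same time. The PARP1-KO cells, which are 1 clone made with CRISPR/Cas9, were also left untreated or given 0.1% DMSO. Every group had 4 replicates. The labels call them biological and the study's methods call them technical, and if they are technical the p-values measure only the spread between preparations of the same cells.

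The 8 libraries held between 6354734 and 14398670 counts on genes, and those of the DMSO group were on average smaller (9803000 ± 3320000 against 11070000 ± 2630000, SD, n = 4 each). At a common depth of 6354734 counts the number of genes detected lay between 15848 and 21386. The libraries numbered 3 stood furthest from their group means in both groups. The SD over genes of the deviation of log2 CPM (the count of a gene relative to the total of its library, after TMM scaling) from the group mean was 0.557 for untreated replicate 3 and 0.671 for DMSO replicate 3, against 0.287 to 0.436 in the other 6 libraries. The groups were compared in 6 measures by exact two-sided permutation over 70 divisions, which cannot give a p below 0.0286. They were the total count, the genes detected at common depth, the shares of mitochondrial mRNA, of ribosomal protein mRNA and of the 100 most abundant genes, and the level of PARP1. The exact p-values were between 0.343 and 0.886, and 0.886 for each measure after Benjamini-Hochberg adjustment over the 6. Mitochondrial mRNA made up 4.76% ± 0.442 of counts without treatment and 5.14% ± 0.498 with DMSO (SD, n = 4 each).

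**Figure D1:**
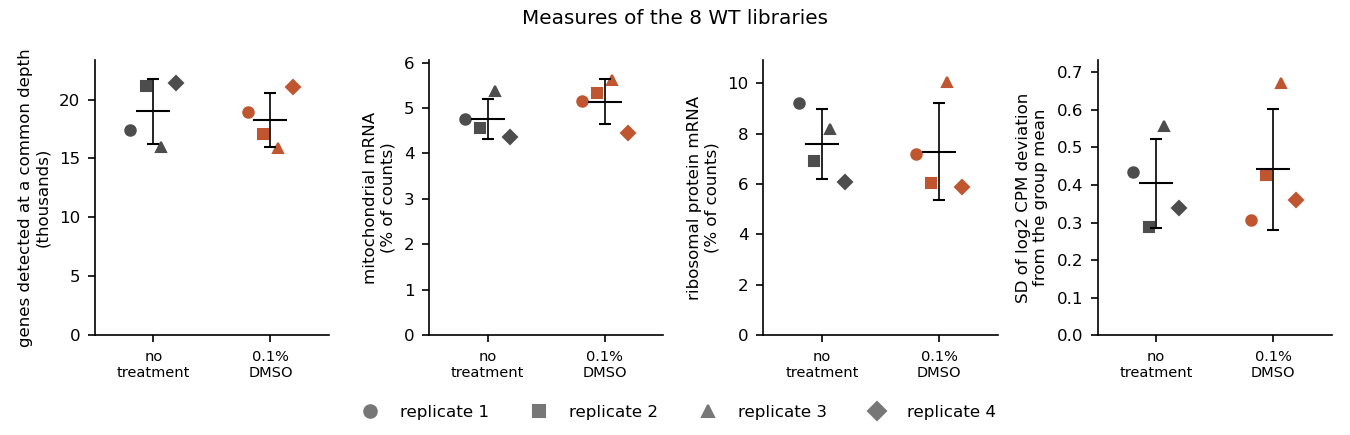
Genes detected at a common depth (in units of 1000), share of mitochondrial mRNA (%), share of ribosomal protein mRNA (%) and SD of the deviation of log2 CPM from the group mean, for each library; symbols are replicate numbers and bars are the mean ± SD of 4 libraries. The groups overlap in each panel, and replicate 3 has the largest deviation in both groups (0.557 and 0.671).

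PARP1, which encodes the nuclear enzyme that senses DNA breaks and carries a deletion of some of its exons in the knockout line, was measured in each library to check the labels. Its level was 781, 887, 863 and 839 CPM in untreated replicates 1 to 4 and 850, 834, 737 and 850 CPM with DMSO. The groups overlapped, and the levels of both were far from the mean of 36.5 CPM in untreated PARP1-KO cells. The log2 fold change with DMSO was −0.04 ± 0.11 (SE), with a 95% interval of −0.25 to 0.17. Of the 12 HEK293 lineage markers, 1 had 0 counts in all 8 libraries. The list summed to 2030 to 2700 CPM without treatment and to 1990 to 2660 CPM with DMSO. Markers of blood cells, endothelium and hepatocytes summed to at most 8.19, 9.29 and 1.39 CPM in any of the 8 libraries. Fibroblast markers were higher, at 38.1 to 53 CPM without treatment and 33.5 to 67.1 CPM with DMSO. Pluripotency and germ layer markers summed to 62.6 to 80.3 CPM without treatment and 56.3 to 82 CPM with DMSO.

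With 0.1% DMSO, 0 of the 28922 genes tested (0%) were differentially expressed genes (DEGs) in WT cells by the quasi-likelihood test of edgeR at an adjusted p below 0.01. The smallest adjusted p was 0.18, and 0 genes passed at 0.05. Without adjustment, 3116 genes (10.8%) had a p below 0.05, of which 1389 (4.8%) were higher and 1727 (5.97%) were lower with DMSO. This fit shares 1 estimate of the spread among the 40 libraries. When only the 8 libraries were fitted, 0 genes were called and 1047 had an unadjusted p below 0.05. Of the 11935 genes with 50 counts or more in the mean of the 8 libraries, 917 (7.68%) had an unadjusted p below 0.05 with the shared estimate and 168 (1.41%) with the 8 libraries alone. The p-values printed below are those of the shared estimate, and a p that misses the threshold does not show that a gene did not differ. DESeq2 called 15 genes on all 40 libraries and 0 on the 8, with 2383 and 571 genes at an unadjusted p below 0.05, and limma voom called 5.

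In the 11935 genes whose mean over the 8 libraries was 50 counts or more, the median log2 fold change was −0.01 and the median of its absolute value was 0.14. The 90th percentile of the absolute value was 0.43, the 99th was 0.90 and the largest was 1.82. A difference of more than 1.5-fold in either direction was seen for 539 of these genes (4.52%) and of more than 2-fold for 85 (0.712%).

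Against the same 4 untreated libraries, Tpc in WT cells gave 248 DEGs (0.857%; 160 higher and 88 lower), a median absolute log2 fold change of 0.22 and 179 genes beyond 2-fold. OL9-119 gave 371 DEGs (1.28%; 130 higher and 241 lower), a median of 0.23 and 154 genes beyond 2-fold. Because the untreated libraries are shared, these values are set side by side and their difference was not tested.

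**Figure D2:**
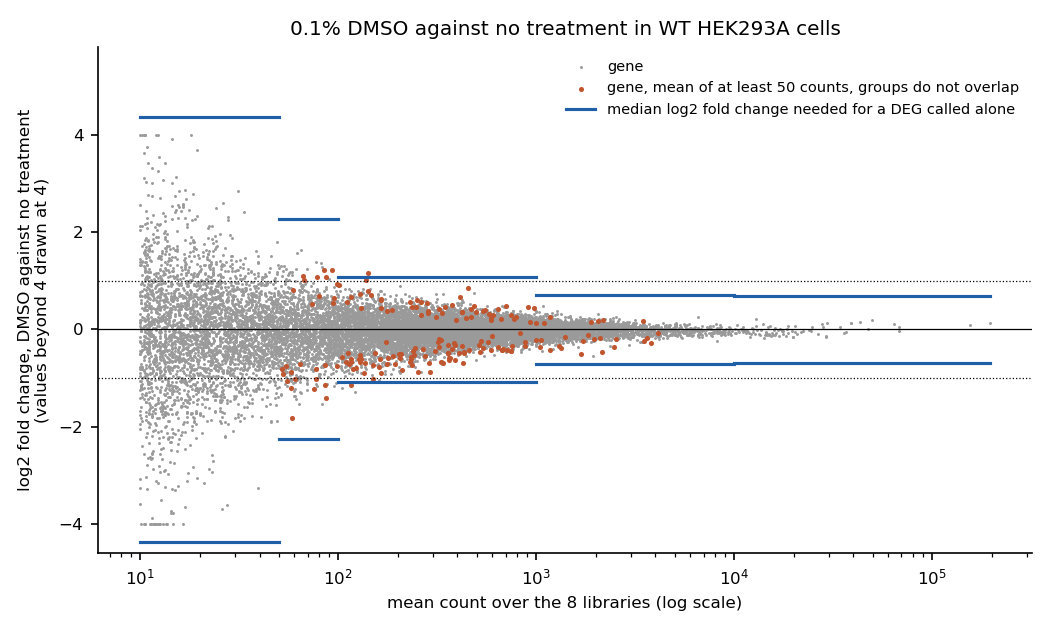
Log2 fold change with DMSO (vertical axis) against the mean count over the 8 libraries (horizontal axis, log scale) for genes with a mean of at least 10 counts; dotted lines mark 2-fold. Coloured points are the 190 genes with a mean of at least 50 counts whose groups did not overlap, and blue lines give, for each count class, the median log2 fold change that a gene would need to be called if it were the only DEG (4.36 for 10 to 50 counts, 0.68 for 10000 and over).

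How large a change of each gene the data still allow is given by its 95% interval. Of the 28922 genes, 21837 had an interval, and 7085 had 0 counts in all 4 libraries of a group and could not be bounded. The interval lay within 1.5-fold in both directions for 7113 genes and within 2-fold for 10616. Among the 11935 genes with a mean of at least 50 counts these were 59.6% and 88.5% (7113 and 10567 genes). The median interval of these genes reached 0.37 on the log2 scale to either side of the estimate, a factor of 1.29. With the spread of the 8 libraries alone the shares were 39.1% and 78.9% (4668 and 9414 genes) and the factor was 1.41.

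The bound depended on the count of the gene. At a mean of 10 to under 50 counts, 1.48% of 3303 genes were bounded within 2-fold. At 50 to under 100 counts the share was 35.1% of 1403 genes, at 100 to under 1000 it was 94.5% of 8292, and at 1000 to under 10000 it was 100% of 2151. For 1.5-fold the shares of the last 3 classes were 0.356%, 59.2% and 98%. A gene that alone was to pass the threshold of 0.01 after adjustment needed an unadjusted p of 3.46e-07. In the median this took a 4.79-fold change at 50 to under 100 counts, a 2.12-fold change at 100 to under 1000 and a 1.64-fold change at 1000 to under 10000.

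Intervals widened to hold for all genes together (Bonferroni) lay within 2-fold for 4504 genes and within 4-fold for 10415, which are 37.7% and 87.2% of those with a mean of at least 50 counts (4504 and 10409). Of the protein-coding genes with this mean, 90.2% of 11326 were bounded within 2-fold by their own interval, and of the long non-coding RNAs 55.0% of 367. Intervals and p-values cover only counting error and the spread shared among all libraries of the series. With the spread of the 8 libraries alone fewer genes were bounded, as given above. The bounds by count class, by gene type, for all genes together, for gene lists and for compound DEGs are given with the shared spread only.

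**Figure D3:**
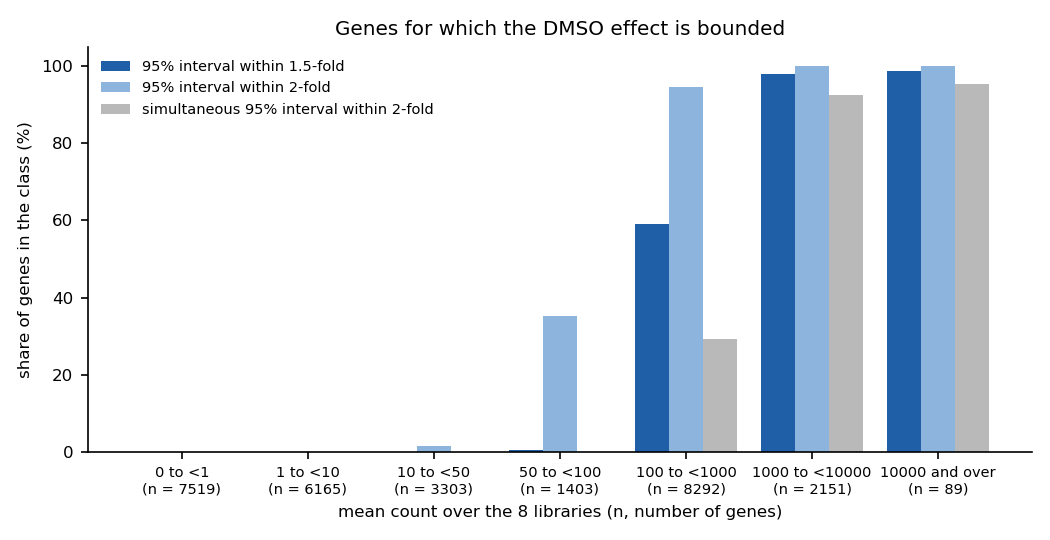
Share of genes (%) whose 95% interval lies within 1.5-fold, within 2-fold, or whose simultaneous 95% interval lies within 2-fold, in classes of mean count over the 8 libraries, with the number of genes in each class. The share within 2-fold goes from 1.48% at 10 to under 50 counts to 100% at 1000 counts and over.

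The genes with the lowest p-values and a mean of at least 50 counts were GLCE, VEGFA, COP1, AJUBA, CDADC1 and RBMS3, each with an adjusted p of 0.18. GLCE (chromosome 15, 69160584 to 69272217, plus strand, hg38) encodes the epimerase that forms iduronic acid in heparan sulfate. It was at 23.0, 43.4, 25.7 and 39.7 CPM in untreated replicates 1 to 4 and at 46.5, 72.0, 65.4 and 54.8 CPM with DMSO. All 4 DMSO libraries lay above all 4 untreated libraries. This gave a log2 fold change of 0.86 ± 0.18 (SE), with an interval of 0.49 to 1.23. In the 8 libraries alone the change was 0.87 with an adjusted p of 0.971. Over all alternatives tried, the adjusted p of GLCE ran from 0.00684 (DESeq2 on the 40 libraries) to 0.978.

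VEGFA (chromosome 6, 43770184 to 43786487, plus strand) encodes the endothelial growth factor that hypoxia induces. Its level was 48.7, 63.7, 78.5 and 63.5 CPM without treatment and 49.3, 38.6, 34.8 and 51.8 CPM with DMSO. The groups overlapped because untreated replicate 1 lay below DMSO replicates 1 and 4. VEGFA differed by a log2 fold change of −0.54 ± 0.12 (SE), with an interval of −0.79 to −0.30, and the value lay between −0.72 and −0.34 when libraries were left out. VEGFA was at 76.9 ± 3.22 CPM with Tpc and at 131 ± 12.5 CPM with OL9-119 (SD, n = 4 each). The Tpc libraries ran from 73.9 to 81.1 CPM and overlapped the untreated group at its replicate 3, while the OL9-119 libraries, from 112.9 CPM upwards, lay above both groups.

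AJUBA (chromosome 14, 22971177 to 22982551, minus strand) encodes a LIM domain protein of cell junctions that acts in the Hippo pathway. It was at 31.5, 31.8, 33.9 and 30.4 CPM without treatment and at 16.9, 16.8, 12.5 and 24.1 CPM with DMSO. The untreated libraries were close together and all lay above the DMSO libraries. AJUBA differed by a log2 fold change of −0.87 ± 0.20 (SE), with an interval of −1.26 to −0.47. The mean was 32.1 ± 4.84 CPM with Tpc and 25.1 ± 3.41 CPM with OL9-119 (SD, n = 4 each). Both treatments also contained DMSO. Among the genes with the lowest p-values, RBMS3 averaged 11.3 CPM untreated, 3.90 with DMSO, 5.76 with Tpc and 6.33 with OL9-119. GLCE averaged 32.9, 59.7, 50.8 and 41.5 CPM in the same order. Both compound means of COP1 and CDADC1 also lay between the untreated and DMSO means. Those of VEGFA lay above both. The compound groups were not tested against DMSO. AJUBA overlaps another gene on the same strand. Of the 48 genes chosen for naming, 15 overlap a gene on the same strand, among them COP1, HDX, BTN3A1, EFNA3, PRRX1, HOXC8, CTH, MGST1 and RPS29, and 15 others overlap a gene on the opposite strand only, among them VEGFA, IDH1 and SLC6A9. Since the strand setting of the counts is not given, the counts of all 30 are uncertain to that extent.

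COP1 (chromosome 1, 175944831 to 176207286, minus strand), a ubiquitin ligase that marks transcription factors such as JUN for degradation, was at 25.2, 44.2, 30.6 and 46.8 CPM without treatment and at 57.2, 55.8, 85.5 and 46.5 CPM with DMSO. Replicate 4 was alike in both groups, and the groups overlapped there. COP1 differed by a log2 fold change of 0.74 ± 0.17 (SE). CDADC1, a cytidine deaminase domain gene on chromosome 13 (49247925 to 49293485), was at 31.3, 15.1, 22.2 and 12.5 CPM without treatment and at 7.04, 11.6, 7.07 and 14.4 CPM with DMSO, a log2 fold change of −1.04 ± 0.24 (SE). RBMS3, an RNA-binding protein gene on chromosome 3 (28574791 to 30010391) that overlaps 7 other genes in the annotation, was at 17.6, 4.77, 14.6 and 8.37 CPM without treatment and at 5.33, 2.95, 3.24 and 4.07 CPM with DMSO. The log2 fold change of RBMS3 was −1.53 ± 0.36 (SE). In both genes untreated replicates 1 and 3 were the highest of the 8 libraries, and the groups overlapped.

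**Figure D4:**
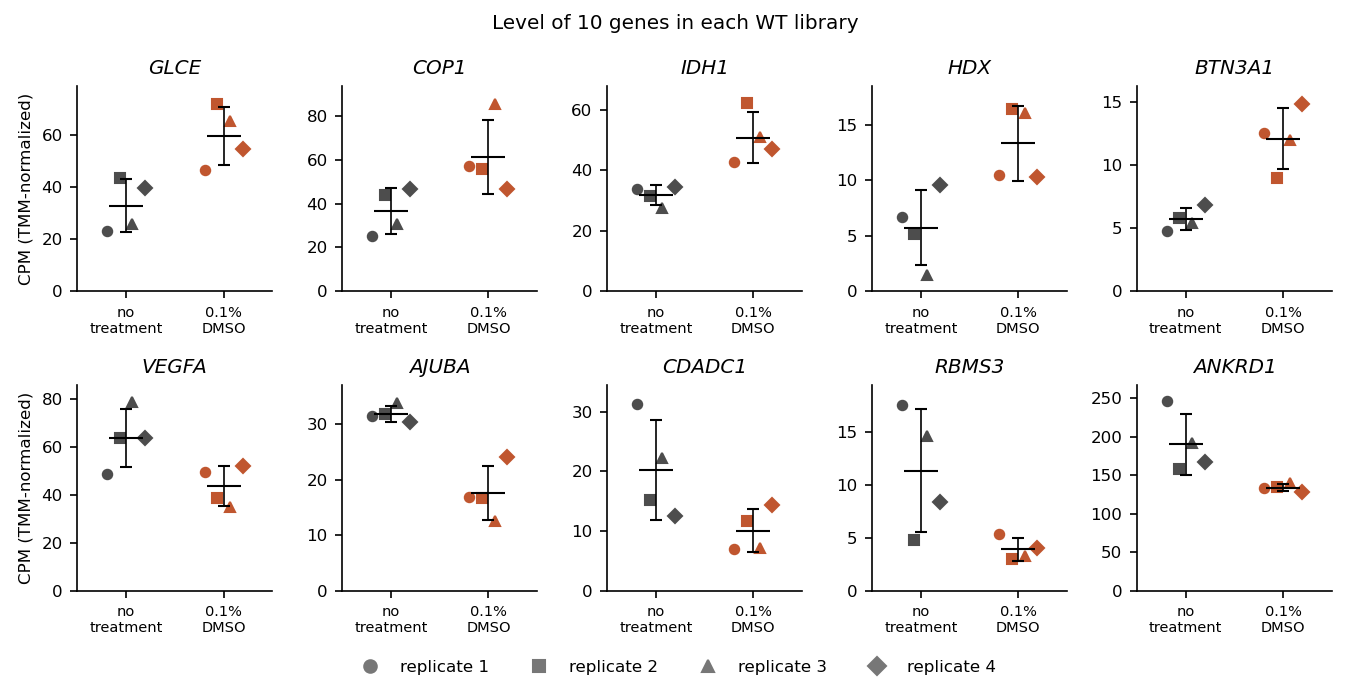
CPM of 10 genes in each library without treatment (grey) and with 0.1% DMSO (orange); symbols are replicate numbers and bars are the mean ± SD of 4 libraries. GLCE, IDH1, HDX, BTN3A1, AJUBA and ANKRD1 show no overlap between the groups, while COP1, VEGFA, CDADC1 and RBMS3 do overlap.

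The CPM of the groups did not overlap for 190 of the 11935 genes with a mean of at least 50 counts (1.59%), of which 72 (0.603%) were higher and 118 (0.989%) were lower with DMSO. Over all 28922 genes the number was 333 (1.15%). If the labels were exchanged at random, the groups of a gene would separate fully in a share of 0.0286 of the 70 divisions. Both shares seen were below this, so a lack of overlap does not by itself show a change. The 6 highest of the 190 were HDX, SEPTIN7P13, HMGB1P5, ENSG00000260947, BTN3A1 and EFNA3, with log2 fold changes of 1.08 to 1.23 and adjusted p of 0.196 to 0.349. The 6 lowest were IRS4, PRRX1, PPFIA4, ENSG00000270504, ACADS and HOXC8, with log2 fold changes of −1.82 to −1.14 and adjusted p of 0.231 to 0.366. Their mean counts were between 57.5 and 141 per library, close to the minimum set for naming a gene.

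HDX, a homeobox gene on the X chromosome (84317874 to 84502479), was at 6.68, 5.13, 1.48 and 9.62 CPM without treatment and at 10.5, 16.5, 16.1 and 10.3 CPM with DMSO. The gap between the groups was narrow, since untreated replicate 4 and DMSO replicate 4 lay side by side. HDX had a log2 fold change of 1.23 ± 0.30 (SE), with an interval of 0.63 to 1.82. BTN3A1, a butyrophilin that takes part in the activation of γδ T cells, was at 4.77, 5.85, 5.43 and 6.87 CPM without treatment and at 12.6, 8.97, 11.99 and 14.9 CPM with DMSO. Its log2 fold change was 1.08 ± 0.29 (SE), and it stayed between 0.98 and 1.22 when libraries were left out. EFNA3, a membrane ligand of Eph receptors, had a log2 fold change of 1.08 ± 0.34 (SE) from 5.10 ± 1.09 to 10.7 ± 3.37 CPM (SD, n = 4 each). SEPTIN7P13 and HMGB1P5 are pseudogenes whose reads can be shared with their parent genes, and their values are uncertain for that reason.

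IRS4, an insulin receptor substrate, was at 16.7, 3.42, 7.80 and 4.12 CPM without treatment and at 2.91, 1.69, 1.80 and 2.66 CPM with DMSO. The groups did not overlap, and untreated replicate 1 was the highest. The log2 fold change of −1.82 ± 0.58 (SE) lay between −2.10 and −1.16 when libraries were left out. PRRX1, a homeobox gene of mesenchyme, was at 14.1, 7.11, 19.9 and 6.62 CPM without treatment and at 5.54, 1.79, 4.32 and 6.42 CPM with DMSO. HOXC8, a homeobox gene of axial patterning, was at 21.4, 13.5, 14.6 and 9.49 CPM without treatment and at 7.32, 6.33, 5.99 and 7.20 CPM with DMSO. The DMSO libraries of HOXC8 were alike and the untreated ones were spread. ACADS, a mitochondrial acyl-CoA dehydrogenase, went from 10.9 ± 4.34 to 4.94 ± 1.43 CPM and PPFIA4, a liprin of synapses, from 10.4 ± 5.90 to 4.46 ± 1.04 CPM (SD, n = 4 each).

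Intervals that lay wholly beyond 1.5-fold were found for 7 genes with a mean of at least 50 counts, and beyond 2-fold for 0. Over all genes tested they were found for 256 and 98, of which 249 and 98 had means under 50 counts. The 7 were RBMS3, PRRX1, SLC6A9 and IRS4 below, and HDX, ENSG00000266865 and SDCBP2-AS1 above. Of these, ENSG00000266865 and SDCBP2-AS1 were named after their values were seen. All 7 had means under 100 counts. ENSG00000266865, a pseudogene, was at 2.35, 3.96, 1.58 and 5.00 CPM without treatment and at 6.89, 20.04, 3.96 and 6.89 CPM with DMSO, where replicate 2 stood apart. SDCBP2-AS1, an antisense RNA that overlaps other genes, was at 3.23, 4.501, 0 and 5.995 CPM without treatment and at 4.62, 5.49, 25.5 and 7.05 CPM with DMSO, where replicate 3 stood apart. SLC6A9, a glycine transporter, was at 6.82, 6.03, 12.6 and 8.99 CPM without treatment and at 3.41, 2.00, 0 and 8.30 CPM with DMSO, again with replicate 3 as the extreme of both groups. Its log2 fold change of −1.37 ran from −2.14 without DMSO replicate 4 to −0.73 without all libraries of replicate 3, and that of HDX from 0.81 to 1.69 when libraries were left out.

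Groups of genes that a solvent could touch were examined by 22 hand-compiled lists of 603 distinct tested genes. None of the 603 was a DEG. An unadjusted p below 0.05 was found for 51 of them (8.46%), against 10.8% of all genes tested. Among the 543 with a mean of 50 counts or more the number was 43 (7.92%), against 7.68% of all genes counted that well. The interval of 518 (85.9%) lay within 2-fold and that of 414 (68.7%) within 1.5-fold. The median log2 fold change of a list ran from −0.19 to 0.09, beside 0 for all genes tested, with 15 lists below 0 and 7 above. Of all 28922 genes tested, 12058 (41.7%) were higher and 13803 were lower with DMSO, and the rest had a log2 fold change of 0. Only the NF-κB targets and the YAP and cytoskeleton genes had a median beyond 0.1 in size. The share of 10.8% set beside single lists below is that of all genes tested. For lists whose members mostly have a mean of 50 counts or more, 7.68% is the closer reference. No list was tested as a set.

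Enzymes and transporters that handle foreign compounds come first among these. Of 26 xenobiotic response genes tested, 9 were higher, 15 were lower and 0 were called, with a median of −0.06. CYP1A1, the classical target of the aryl hydrocarbon receptor, was low at 4.00 ± 2.20 CPM without treatment and 1.92 ± 1.39 CPM with DMSO. The lowest p of the list among genes with at least 50 counts was that of MGST1, a membrane glutathione transferase, at 13.7, 12.1, 1.88 and 11.2 CPM without treatment and 14.4, 7.49, 27.7 and 10.0 CPM with DMSO (unadjusted p = 0.0616). Replicate 3 was the lowest untreated and the highest DMSO library, and without all libraries of that number the log2 fold change of 0.61 became −0.21.

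Methionine and sulfoxide metabolism, the chemistry closest to DMSO itself, had a median of −0.03 over 20 genes, of which 9 were higher and 11 lower. CTH, the lyase that makes cysteine from cystathionine, was at 16.7, 7.47, 18.6 and 6.99 CPM without treatment and at 6.61, 2.53, 8.15 and 5.95 CPM with DMSO. The groups overlapped, since untreated replicates 2 and 4 lay below DMSO replicate 3. The log2 fold change of CTH was −1.11 ± 0.28 (SE) with an adjusted p of 0.203. SUOX, the mitochondrial sulfite oxidase, had a log2 fold change of 0.55 and an unadjusted p of 0.0441.

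The NRF2 and glutathione list, the response to oxidants and electrophiles, had a median of −0.04 over 21 genes. Its member HMOX1, heme oxygenase, was at 15.3, 9.09, 46.2 and 10.99 CPM without treatment and at 12.4, 18.7, 10.1 and 9.71 CPM with DMSO. The log2 fold change of HMOX1 was −0.67 with all libraries and 0.11 without untreated replicate 3. ABCC2, at a mean of 33.5 counts, had the lowest p of the whole list, with a log2 fold change of 2.41 and an adjusted p of 0.18. Heat shock genes had a median of 0.05 over 19 genes, with 12 higher. DNAJB1, an HSP40 co-chaperone, was at 175, 192, 180 and 178 CPM without treatment and at 234, 186, 274 and 209 CPM with DMSO, a log2 fold change of 0.32 ± 0.10 (SE) with an adjusted p of 0.29. The DMSO libraries of DNAJB1 were spread over a wider range than the untreated ones, and DMSO replicate 2 lay within the untreated range.

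For the unfolded protein response the median was 0.01, and the intervals of all 20 genes lay within 2-fold. For targets of ATF4, the factor of amino acid shortage, it was −0.09 over 24 genes. Of these, 1 higher and 3 lower had an unadjusted p below 0.05 (16.7%, against 10.8% of all genes tested), and 0 were called. CEBPB was at 30.8 ± 12.2 and 19.6 ± 7.07 CPM (SD, n = 4 each). The others were CHAC1 (log2 fold change −1.45, mean of 27.5 counts), STC2 (−0.35) and, in the other direction, SESN2 (0.295), which were named after their values were seen. The p53 targets had 0 of 23 genes at an unadjusted p below 0.05, a median of −0.04 and intervals within 2-fold for 22. For osmotic stress and cell volume the median was 0.04 over 20 genes, with members on both sides, and 4 (20%, against 10.8% of all genes tested) had an unadjusted p below 0.05. They were SLC6A9 (log2 fold change −1.37), the kinase SGK1 (−0.66), the taurine transporter SLC6A6 (−0.47) and the betaine transporter SLC6A12 (2.44), which had a mean of 16.1 counts. The last 3 were named after their values were seen. The interferon-stimulated genes had a median of 0.01 over 26 genes, of which 13 were bounded within 2-fold. Metallothioneins and metal response genes numbered 6, with MT2A, a metal-binding protein, at 34.6 ± 7.64 CPM without treatment and 40.3 ± 14.9 CPM with DMSO (SD, n = 4 each).

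**Figure D5:**
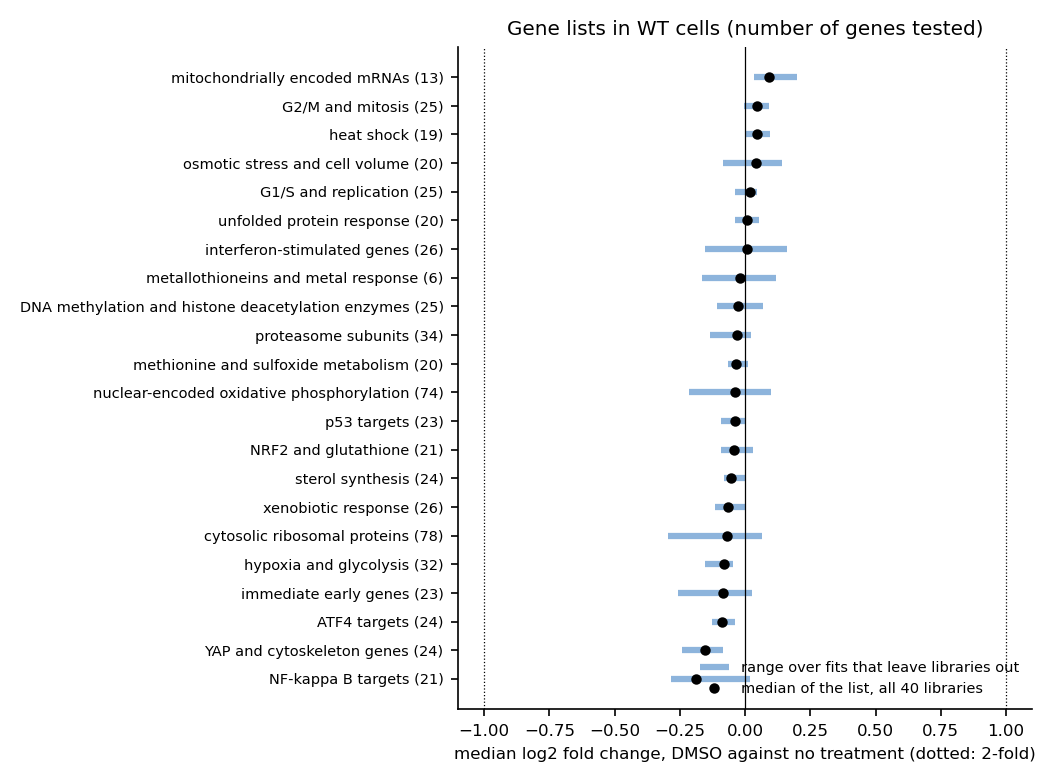
Median log2 fold change with DMSO of 22 gene lists (points; number of tested genes in parentheses) and the range of that median over fits that leave out a library or all libraries of a replicate number (bars); dotted lines mark 2-fold. The medians lie between −0.19 and 0.09, and the widest bar is that of the cytosolic ribosomal proteins (−0.29 to 0.07).

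The YAP and cytoskeleton genes, which respond to cell shape, adhesion and density, had a median of −0.15 over 24 genes, with 18 lower and 6 higher. The median stayed between −0.24 and −0.09 when libraries were left out. An unadjusted p below 0.05 was found for 4 of them (16.7%, against 10.8% of all genes tested), all lower, and 0 were called. ANKRD1, a YAP target that binds titin in muscle, was at 246, 158, 191 and 167 CPM without treatment and at 134, 134, 140 and 127.8 CPM with DMSO. All DMSO libraries lay below all untreated ones and were alike, while the untreated ones were spread. ANKRD1 had a log2 fold change of −0.51 ± 0.12 (SE), with an interval of −0.75 to −0.26 and an adjusted p of 0.186. ANKRD1 was at 392 ± 49.7 CPM with Tpc and 153 ± 9.66 CPM with OL9-119 (SD, n = 4 each). The other 3 were CCN1, a matricellular protein (log2 fold change −0.47), TPM1, a tropomyosin (−0.35), and CNN2, a calponin (−0.51). These 3 were named after their values were seen.

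The immediate early genes, which follow growth factor and stress signals within minutes, had a median of −0.09 over 23 genes. An unadjusted p below 0.05 was found for 6 of them (26.1%, against 10.8% of all genes tested), 5 lower and 1 higher, and 0 were called. FOSL1, a partner of JUN in AP-1, was at 23.3, 16.8, 30.1 and 13.2 CPM without treatment and at 13.5, 12.5, 11.5 and 8.30 CPM with DMSO. The groups overlapped at untreated replicate 4. FOSL1 had a log2 fold change of −0.86 ± 0.24 (SE) with an adjusted p of 0.237. The others were FOS (−0.91), IER3 (−0.42), SRF (−0.41), KLF4 (−0.35) and, in the other direction, ZFP36 (0.62), which were named after their values were seen.

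Hypoxia and glycolysis genes had a median of −0.08 over 32 genes, of which 23 were lower, and the median stayed between −0.15 and −0.05 when libraries were left out. An unadjusted p below 0.05 was found for VEGFA and for SLC2A3 (−0.55), a glucose transporter, NDRG1 (−0.47), a stress-induced gene, and GPI (−0.24), a glycolytic isomerase, the last 3 named after their values were seen. These 4, all lower, are 12.5% of the list, against 10.8% of all genes tested, and 0 were called. NF-κB targets had a median of −0.19 over 21 genes, of which 12 were bounded within 2-fold, and the median ranged from −0.28 to 0.02 when libraries were left out. RELB, a subunit of NF-κB, was at 20.3, 13.1, 14.8 and 10.9 CPM without treatment and at 11.9, 9.07, 12.2 and 8.14 CPM with DMSO (unadjusted p = 0.00778). Of 24 sterol synthesis genes, 22 were bounded within 2-fold, and IDI1, the isomerase of isoprenoid units, showed no overlap at 29.3 ± 0.614 and 37.0 ± 3.86 CPM (SD, n = 4 each; adjusted p = 0.421).

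Chromatin enzymes were included because DMSO is used in studies of differentiation. The list of DNA methylation and histone deacetylation enzymes had a median of −0.03 over 25 genes, with 4 higher and 1 lower at an unadjusted p below 0.05 (20% together, against 10.8% of all genes tested), and 0 were called. IDH1, the cytosolic isocitrate dehydrogenase whose product feeds demethylases, was at 33.9, 31.5, 27.5 and 34.4 CPM without treatment and at 42.6, 62.2, 51.1 and 47.1 CPM with DMSO. All DMSO libraries lay above all untreated ones. IDH1 had a log2 fold change of 0.67 ± 0.17 (SE), with an interval of 0.34 to 1.01 and an adjusted p of 0.198. It lay between 0.56 and 0.78 when libraries were left out. DNMT3B, a de novo DNA methyltransferase, was at 33.2 and 47.4 CPM in the mean (log2 fold change 0.52, unadjusted p = 0.00514) and was named after its value was seen.

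The cell cycle lists were tightly bounded. All 25 genes of G1/S and replication and all 25 of G2/M and mitosis had intervals within 2-fold, and 23 and 24 of them within 1.5-fold. Their medians were 0.02 and 0.05. In G1/S and replication 3 genes, all lower, had an unadjusted p below 0.05 (12%). The share was 10.8% of all genes tested and 7.68% of those with a mean of at least 50 counts, a mean that all 25 genes had. In G2/M and mitosis 0 did. TYMS, thymidylate synthase, was at 364 ± 59.2 CPM without treatment and 304 ± 12.9 CPM with DMSO (SD, n = 4 each; log2 fold change −0.26 ± 0.09, SE; adjusted p = 0.316). HMMR, a spindle protein, had the lowest p of the G2/M list and differed by 0.18 ± 0.15 (SE).

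The cytosolic ribosomal proteins had a median of −0.07, with 69 of 78 lower, but this median ran from −0.29 to 0.07 when libraries were left out, and their share of counts was 5.86% to 10.1% with DMSO and 6.07% to 9.23% without treatment. RPS29, with the lowest p of this list, was at 135 ± 32.4 and 102.6 ± 32.7 CPM (SD, n = 4 each; unadjusted p = 0.0165). The mitochondrially encoded mRNAs had a median of 0.09, with 12 of 13 higher and 0 at an unadjusted p below 0.05, and all 13 were bounded within 1.5-fold. MT-CYB, cytochrome b, had the lowest p of them and was at 4466, 4328, 5399 and 4043 CPM without treatment and at 4902, 5869, 5908 and 4093 CPM with DMSO. These 13 mRNAs are transcribed from 1 genome and are not independent of each other. Of 74 nuclear genes of oxidative phosphorylation, 69 were bounded within 2-fold, and of 34 proteasome subunits, 32. NDUFB4, a subunit of complex I, was at 89.9 ± 11.2 and 124.7 ± 38.0 CPM, and PSMB6, a proteasome subunit, at 133 ± 40.8 and 107 ± 10.1 CPM (SD, n = 4 each).

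The 15 genes that DESeq2 called on all 40 libraries were mostly counted a few times, with means under 50 counts over the 8 libraries for 11 of them. The 4 others were VEGFA, GLCE, AJUBA and HDX. The lowest adjusted p belonged to RB1-DT and ENSG00000227733, which had at most 1 and 4 counts in any of the 8 libraries. ACTN3, a muscle actinin, had 16, 0, 52 and 4 counts without treatment and 0 in each DMSO library. ENSG00000276564, a long non-coding RNA, had 31, 13, 30 and 13 counts without treatment and 3, 0, 1 and 1 with DMSO. ABCC2, an export pump for conjugated drugs, was higher, with 14, 14, 0 and 17 counts without treatment and 71, 45, 91 and 16 with DMSO. By edgeR the adjusted p of ACTN3, ENSG00000276564 and ABCC2 was 0.18 for each.

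Genes present in a group and absent from the other were also counted. Of the 28922 genes tested, 2608 were at 0 in all 4 DMSO libraries and counted in at least 1 untreated library, and 1416 were the reverse. Those counted in all 4 libraries of the other group were 15 with 0 in the DMSO libraries and 1 with 0 in the untreated ones. The latter was ENSG00000267342, which was named after its value was seen and had 5, 4, 30 and 2 counts with DMSO. Of the 15, the one with the highest count was CYP2C8, a drug-metabolizing cytochrome, with 1, 5, 53 and 3 counts. CDRT4 had an even 9, 8, 10 and 9 counts. In most of the others with over 20 counts in a library, these counts were in untreated replicates 1 and 3, as for MIR4737 with 33, 4, 48 and 6 counts. The untreated libraries were on average deeper, and the part of depth in these counts was not tested.

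The same solvent was given to PARP1-KO cells, and these libraries are independent of the WT ones. There DMSO gave 0 DEGs (0%) by edgeR, 538 genes (1.86%) at an unadjusted p below 0.05, and 0 DEGs by DESeq2. The median absolute log2 fold change was 0.08, and 7 genes of the 11935 were beyond 2-fold. Both lines share 1 estimate of the spread in this fit. With the 20 WT libraries alone the WT number at an unadjusted p below 0.05 was 1748 instead of 3116, and the PARP1-KO libraries were not fitted alone. A wider spread between libraries also enlarges the fold changes seen. These values therefore do not show that the solvent effect was smaller in PARP1-KO cells. The difference of the DMSO effect between WT and PARP1-KO cells gave 0 genes by edgeR (0%), with 1754 (6.06%) at an unadjusted p below 0.05 and a smallest adjusted p of 0.722. DESeq2 called 2, which were RB1-DT and ENSG00000227733.

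The genes whose groups did not overlap in WT cells were also read in PARP1-KO cells. Of the 190 without overlap in WT, 112 (58.9%) had the same sign in PARP1-KO cells, against 53.9% of all 11935 genes. The 72 higher genes had a median log2 fold change of 0.44 in WT, where they had been chosen, and of 0.04 in PARP1-KO cells. The 118 lower genes had medians of −0.50 and −0.02. Across the 11935 genes, which are not independent replicates, the log2 fold changes of the lines had a Pearson r of 0.07 and a Spearman rho of 0.08.

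For the genes with the lowest p in WT cells the change in PARP1-KO cells was 0.03 ± 0.18 (SE) for GLCE, 0.07 ± 0.12 for VEGFA and 0.03 ± 0.20 for AJUBA. COP1 differed by −0.14 ± 0.17 (SE), ANKRD1 by −0.09 ± 0.12 and IDH1 by −0.18 ± 0.17. The intervals of all 6 contained 0. The difference between the lines had an adjusted p of 0.722 or above by edgeR for each of them. Its unadjusted p was 0.000466 for COP1, 0.000604 for IDH1 and 0.000683 for VEGFA. These genes were chosen for a low p in WT cells, overall or within a list, and the difference contains that same WT change. The unadjusted values are therefore not a test of a difference between the lines.

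The bounds can be read for the genes that the compounds changed. Of the 248 DEGs of Tpc in WT cells, the DMSO interval lay within 1.5-fold for 177 (71.4%) and within 2-fold for 233 (94.0%). Their median absolute log2 fold change was 0.82 with Tpc and 0.15 with DMSO. Of the 371 DEGs of OL9-119, 288 (77.6%) were bounded within 1.5-fold and 349 (94.1%) within 2-fold, with medians of 0.76 with OL9-119 and 0.12 with DMSO. These genes were chosen for their change against the same untreated libraries, so the values describe the DEGs and are not a test of the solvent.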

How the data were processed

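Directional libraries of poly(A) RNA from WT and PARP1-KO HEK293A cells were read from both ends. Alignment by the authors used STAR 2.7.8 (hg38, Ensembl annotation), and they deposited raw counts per gene, not normalized and not filtered. FastQC 0.11.9 and Picard 2.26.6 are named in the submitters' processing notes. Which strand column of the counts was kept is not given in the sources used here. Columns of other samples in the table numbered 0. Total counts ranged from 3455043 to 20379777 over the 40 libraries.

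A gene was tested when its counts in the 40 libraries added up to 10 or more (28922 of 58395). Symbols and positions were taken from GENCODE 44 (hg38), which matched 57754 IDs. After TMM normalization, edgeR 4.0.16 (R 4.3.3) gave quasi-likelihood tests (legacy = TRUE), with 10 groups and no covariate. CPM values use TMM library sizes. The Benjamini-Hochberg method adjusted the p-values of all genes tested, with a threshold of 0.01. The standard error is that of the fitted coefficient, with negative binomial weights and the posterior quasi-dispersion of the gene, and 95% intervals use the t quantile. A gene at 0 in all libraries of a group has no interval. DESeq2 1.42.0 and limma 3.58.1 were alternatives. The procedure was tested on simulated data. Library measures were compared by exact permutation. Every pair of libraries of a group differed by more than counting noise.

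The lists, the members and the tests were chosen with earlier results of these data known. Named genes are PARP1; among genes whose mean count in the 8 libraries was 50 or more the 6 lowest p-values, and the 6 highest and 6 lowest fold changes without overlap; the lowest p of each list; and 6 DESeq2 calls. Other genes are marked as named after their values were seen, or stand for a count of a list. The alternatives were the libraries in the fit, normalization, filters, the replicate number as a block, the library name prefix as a batch, other tests and libraries left out. Added after seeing the data were the number of genes detected as a covariate and limma voom with quality weights.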

Additional observations from a re-analysis of the deposited data

Results flagged for a closer look

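In each group of 4 libraries, the gap between the most extreme library and its nearest neighbour was divided by the range of the group. This was done for the named genes and the library measures, in 106 groups in all, of which 5 exceeded Dixon's 95% critical value for 4 samples. Chance flags about 1 in 20 groups. PPFIA4 had a ratio of 0.973 without treatment, with 19.3 CPM in replicate 3 against 7.62 in the next library. HMOX1 had a ratio of 0.834 without treatment, with 46.2 CPM in replicate 3 against 15.3. The ratio of ENSG00000227733 without treatment was 1, with 0.500 CPM in replicate 4 and 0 in the others, which is 4 counts. USP18, a protease that limits interferon signalling, had a ratio of 0.836 with DMSO, with 0 CPM in replicate 3 against 9.92 in the next lowest library. PARP1 had a ratio of 0.853 with DMSO, with 737 CPM in replicate 3 against 834. Of the 5 values, 4 came from the libraries numbered 3, which also stood furthest from their group means. The part of library quality in these values was not tested.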

How the results depend on the processing

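The count of 0 DEGs with DMSO in WT cells was obtained under 24 of 27 alternatives, including each library and each replicate number left out. The exceptions were legacy = FALSE with 1 gene (MMP7, with at most 78 counts in a library), limma voom with 5 (LINC01473, GBX1, TMEM72, ENSG00000263011 and ENSG00000278920, with at most 22 to 50 counts) and DESeq2 with 15, and DESeq2 called 2 genes for the difference between the lines. These genes were named after their values were seen. The number with an unadjusted p below 0.05 (3116) was 1047 with only the 8 libraries, 1748 with the 20 WT libraries, 1690 with filterByExpr, 1133 with quality weights and 571 with DESeq2 on the 8 libraries, and 2235 to 3791 with libraries left out. Without all libraries of replicate 3, 52.6% and 86.8% of the genes with a mean of at least 50 counts were bounded within 1.5-fold and 2-fold. Over all genes the number within 1.5-fold was 4668 with only the 8 libraries. It was 4953 to 6817, and the number within 2-fold 9370 to 10579, with libraries left out. The quality weights were 0.242 and 0.217 for the libraries numbered 3, and 0.251 to 1.65 for the others. Tpc gave 376 DEGs with the replicate number as a block and 554 with DESeq2, and OL9-119 gave 533 and 708. Same-numbered untreated and DMSO libraries deviated together with r of 0.01 to 0.48, and 2 of 4 matched best with their own number, so the numbers were not taken as pairs. With the replicate block DMSO gave 0 DEGs in WT and in PARP1-KO cells, 2111 genes at an unadjusted p below 0.05 and 7234 and 10614 genes bounded within 1.5-fold and 2-fold. The log2 fold changes of 48 named genes gave 1244 alternative values, of which 11 in 4 genes had the opposite sign. HMOX1 was 0.15 with quality weights and −1.15 to 0.20 with libraries left out, MGST1 −0.21 to 0.96, PARP1 −0.0968 to 0.00926 and COL3A1, a fibroblast collagen, −0.33 to 0.17. With libraries left out the difference in genes detected was −1770 to 51.9, in ribosomal protein share −1.23 to 0.231 percentage points, in the share of the 100 most abundant genes −0.833 to 1.14 points and in PARP1 −45.3 to 2.13 CPM. The cause of these changes was not tested. For genes under 50 counts the depth leaves the change almost unbounded, with 0.288% of 16987 within 2-fold.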
